A study of Homo sapiens with 18 samples.

Results

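Collagen genes were followed in RNA-seq data from TNBC cells silenced for PBRM1, IRF1 or MUC1. A gene was counted as a collagen gene when its symbol had the form COL, a number, A and a number. Each of the 3 expression tables listed 44 of these genes, among 25673 genes in the PBRM1 experiment, 25540 in the IRF1 experiment and 25557 in the MUC1 experiment. Those with at least 1 TPM in 3 or more of the 6 libraries of a table are described for that table. They numbered 17 (PBRM1 experiment), 14 (IRF1 experiment) and 16 (MUC1 experiment). TPM is a length-corrected transcript level, set so that each library sums to 1000000.

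The 18 libraries formed 6 groups of 3. BT-549 cells, a TNBC line, carried a stable PBRM1shRNA or a stable control shRNA in the PBRM1 experiment, and a stable IRF1shRNA or a second set of control shRNA cells in the IRF1 experiment. BRCA1-mutant MDA-MB-436 cells, another TNBC line, carried tet-MUC1shRNA and were treated with DOX at 500 ng/ml or with 0.1% DMSO as vehicle. All cells were puromycin resistant, and BT-549 medium also held insulin. Short hairpin RNAs (shRNAs) lower a chosen transcript by directing its degradation. The vehicle cells held the same hairpin construct as the DOX cells, so effects of DOX itself and of MUC1 silencing cannot be told apart. Each silenced line carried a single hairpin, and the libraries of a group came from triplicate cultures, so that p-values rest on the spread among cultures of a line. In the main test of both BT-549 experiments that spread was pooled over genes of like expression level and was not each gene's own. In bulk RNA, fewer cells that express a gene and less RNA per cell cannot be told apart.

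The silenced genes were checked in their own comparisons. PBRM1, a bromodomain subunit of the PBAF chromatin remodeler, had 3.22, 2.69 and 2.95 TPM in PBRM1shRNA cells, against 12.3, 10.7 and 12.6 TPM in their controls. IRF1, a transcription factor of the IFN response, had 1.03, 1.30 and 1.18 TPM in IRF1shRNA cells, against 5.22, 4.49 and 4.54 TPM in controls. MUC1, a transmembrane mucin, had 3.65, 2.71 and 2.73 TPM in DOX-treated cells, against 6.37, 4.97 and 5.55 TPM in vehicle-treated cells. The groups did not overlap in any of the 3 comparisons. The share of all TPM taken by short noncoding RNAs ranged between 75.6% and 79.3% (PBRM1 table), 84.8% and 88.5% (IRF1 table) and 12.1% and 15.2% (MUC1 table). Levels are therefore on a different scale in each table and were tested only within a table. The depth of single libraries is unknown, since TPM does not carry it.

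Collagens are extracellular matrix proteins whose chains wind around each other into a helix. Fibrillar collagens (types I, III and V among others) form the fibers of connective tissue. Type IV chains form the sheet-like network of basement membranes, where types XV and XVIII also lie, and the remaining types form beaded filaments, anchor fibrils, coat other fibrils or span the cell membrane. In carcinomas much of the fibrillar collagen is made by fibroblasts, while cultured carcinoma lines with mesenchymal features can also transcribe these genes.

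Of the 44 genes, 22 reached the filter in at least 1 table and 22 in none. Fibrillar genes accounted for 6 of 11, basement membrane genes for 6 of 8 and other collagens for 10 of 25. The 10 genes present in all 3 tables were COL3A1, COL5A1 and COL5A2 (fibrillar), COL4A1, COL4A2, COL4A5 and COL18A1 (basement membrane), and COL6A1, COL6A2 and COL12A1 (other). COL1A1, COL1A2, COL13A1 and COL15A1 reached the filter only in both BT-549 tables, and COL6A3 and COL23A1 only in the PBRM1 table. COL4A6, COL7A1, COL14A1, COL17A1 and COL27A1 did so only in the MDA-MB-436 table, and COL16A1 in the PBRM1 and MUC1 tables. The filter is not a like cutoff in each table. Short noncoding RNAs took at least 75.6% of TPM in the PBRM1 table, 84.8% in the IRF1 table and 12.1% in the MUC1 table. A gene reaches 1 TPM less easily where that share is high, so these lists do not compare the lines. Under the filter, COL16A1 averaged 0.697 TPM in IRF1 controls and COL27A1 0.528 TPM in PBRM1 controls. COL9A1 and COL6A5 were listed at 0 in all 18 libraries.

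The members just outside the filter were COL8A1 and COL21A1 in the PBRM1 table, with highest values of 0.862 and 0.878 TPM. COL8A1 was also just outside in the IRF1 table, at up to 0.905 TPM. In the MUC1 table COL1A1 and COL4A4 reached 1 TPM in 2 libraries each, so that they missed the filter by 1 library. The members just inside it were COL16A1 and COL23A1 in the PBRM1 table, at 1.36 and 1.45 TPM in PBRM1shRNA cells and 1.20 and 1.29 TPM in controls, and COL13A1 in the IRF1 table, at 2.33 TPM in IRF1shRNA cells and 1.65 TPM in controls.

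Type I collagen transcripts were among the most abundant collagens of BT-549 libraries. COL1A2, the alpha 2 chain of type I collagen, was the highest collagen transcript in PBRM1shRNA cells and in both groups of the IRF1 experiment, at 358 ± 9.37 TPM in PBRM1shRNA cells (SD, n = 3) and at 59.8 ± 8.63 TPM in IRF1shRNA cells and 60.2 ± 7.49 TPM in their controls (SD, n = 3 each). In the PBRM1 controls COL15A1 was higher still, at 323 ± 19.5 TPM against 270.1 ± 18.4 TPM for COL1A2 (SD, n = 3). In percentiles of the genes listed, COL1A2 lay between 99.54 and 99.58 in PBRM1shRNA libraries and between 98.74 and 98.87 in IRF1shRNA libraries. MDA-MB-436 cells showed another order. COL1A2 was listed at 0 in all 6 libraries, COL1A1 averaged 0.808 TPM with DOX and 1.32 TPM with vehicle, and COL5A1, the alpha 1 chain of type V collagen, led with 98.8 ± 1.98 TPM in DOX-treated and 94.1 ± 2.93 TPM in vehicle-treated cells (SD, n = 3 each).

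**Figure D1:**
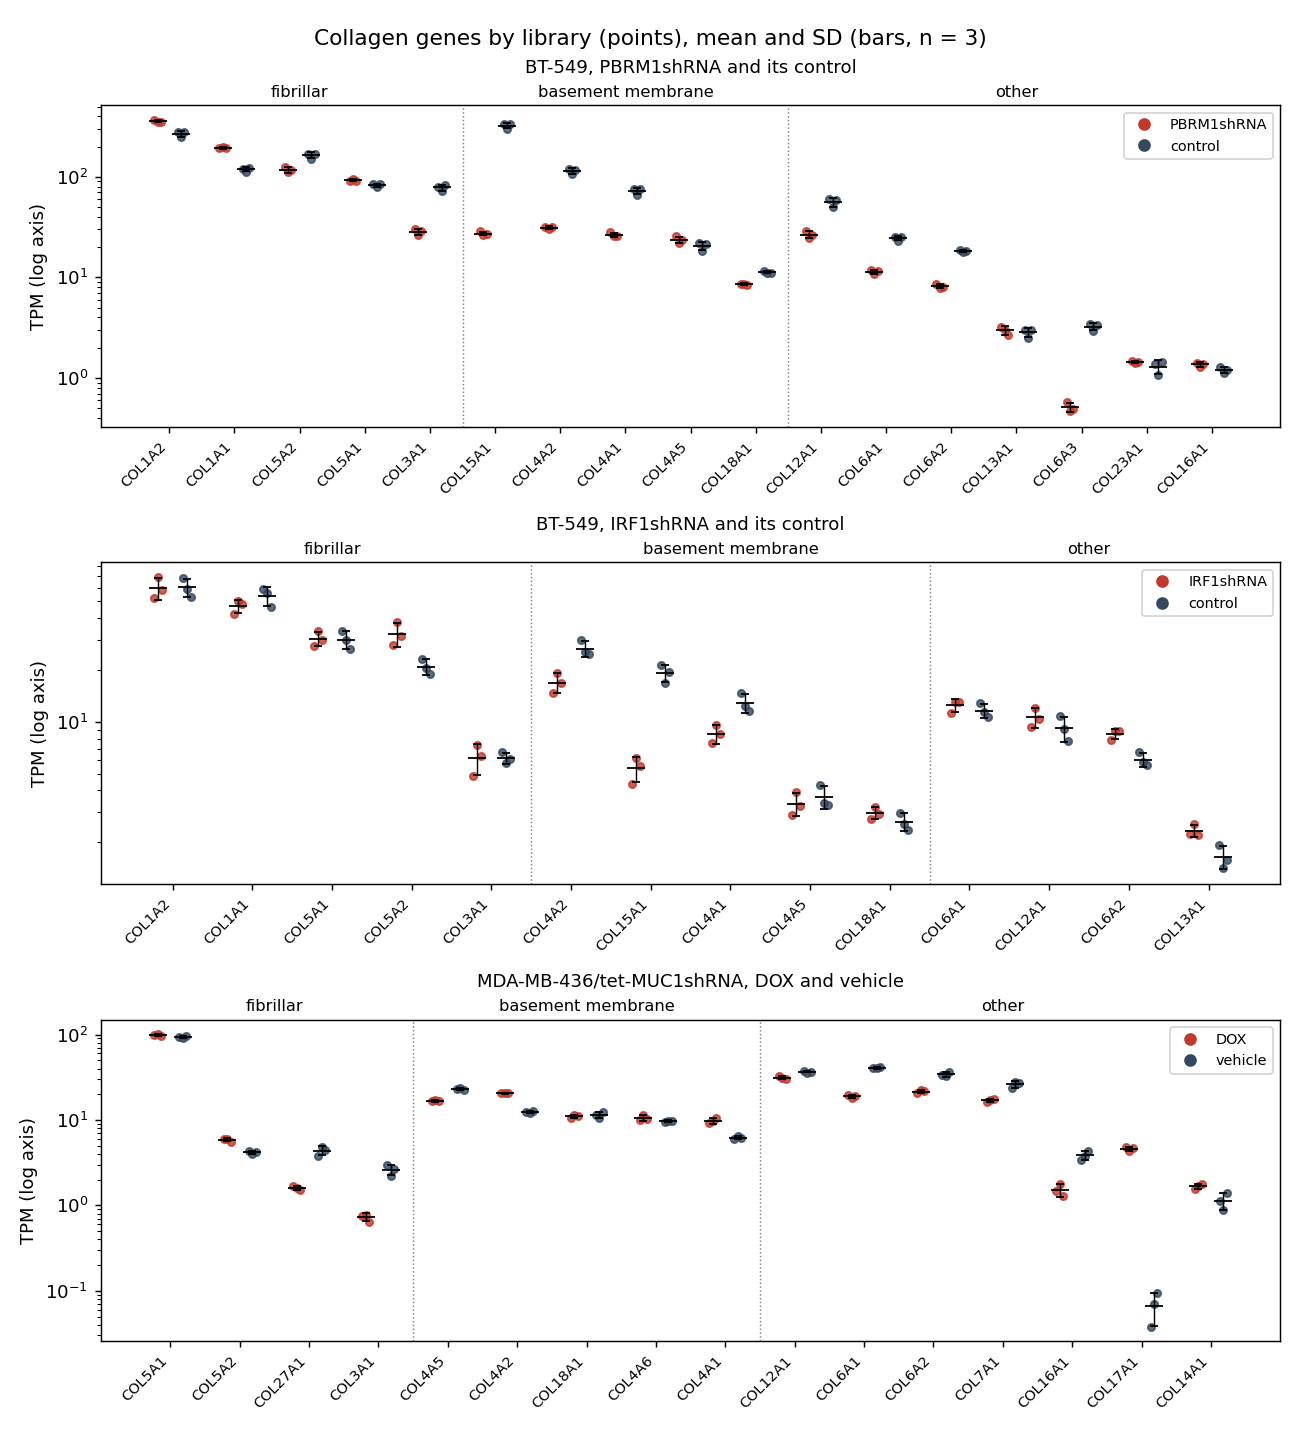
TPM of each collagen gene that passed the filter, on a log axis, by class, for PBRM1shRNA and control BT-549 cells (top), IRF1shRNA and control BT-549 cells (middle), and DOX- and vehicle-treated MDA-MB-436/tet-MUC1shRNA cells (bottom). Points are libraries and bars are the mean and SD (n = 3); COL15A1 had the widest gap in both BT-549 experiments, at 27.3 TPM in PBRM1shRNA and 323 TPM in control cells and at 5.36 TPM in IRF1shRNA and 19.2 TPM in control cells.

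The makeup of the summed collagen signal differed between groups in every experiment. Fibrillar genes made up 81.7% to 82.6% of collagen TPM in PBRM1shRNA libraries and 52.1% to 52.3% in control libraries. Basement membrane genes made up 12.0% to 12.5% in PBRM1shRNA libraries and 39.6% to 39.7% in control libraries. COL15A1 alone averaged 323 of the 543 TPM summed over basement membrane genes in these controls, and 27.3 of 118 TPM in PBRM1shRNA cells. In the IRF1 experiment the fibrillar share was 70.4% to 71.0% in silenced and 62.9% to 65.3% in control libraries, and the basement membrane share was 14.8% to 15.2% in silenced and 23.2% to 25.6% in control libraries. DOX-treated MDA-MB-436 libraries had a fibrillar share of 38.7% to 39.4%, against 33.5% to 34.1% with vehicle. Their basement membrane share was 24.8% to 25.7%, against 19.9% to 20.6% with vehicle, and the share of other collagens was 34.9% to 35.7%, against 45.5% to 46.1% with vehicle. The groups did not overlap in any of these shares, which do not depend on the scale of the library. Shares of one sum depend on each other, so that the share of a class can rise because another class falls. With 3 libraries a group, an exact permutation test cannot go below p = 0.10, and no test was made of the shares.

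The collagen total was lower in PBRM1shRNA cells and in DOX-treated cells, without overlap, but not in IRF1shRNA cells. Collagen genes together held 0.406% ± 0.0131 of the TPM outside short noncoding RNAs in PBRM1shRNA cells and 0.612% ± 0.0065 in controls (SD, n = 3 each). In the IRF1 experiment this share was 0.204% ± 0.0113 in silenced cells and 0.201% ± 0.0055 in controls, and the ranges overlapped. It was 0.0316% ± 0.000376 in DOX-treated and 0.0365% ± 0.00165 in vehicle-treated MDA-MB-436 cells. Of the same TPM, fibrillar genes held 0.334% in PBRM1shRNA cells and 0.320% in controls, and 0.144% in IRF1shRNA cells and 0.129% in controls. They held 0.0124% with DOX and with vehicle, and groups overlapped in every experiment. Basement membrane genes held 0.0497% in PBRM1shRNA cells and 0.243% in controls, and 0.0306% in IRF1shRNA cells and 0.0491% in controls, without overlap. Other collagens held 0.0112% with DOX and 0.0168% with vehicle.

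**Figure D2:**
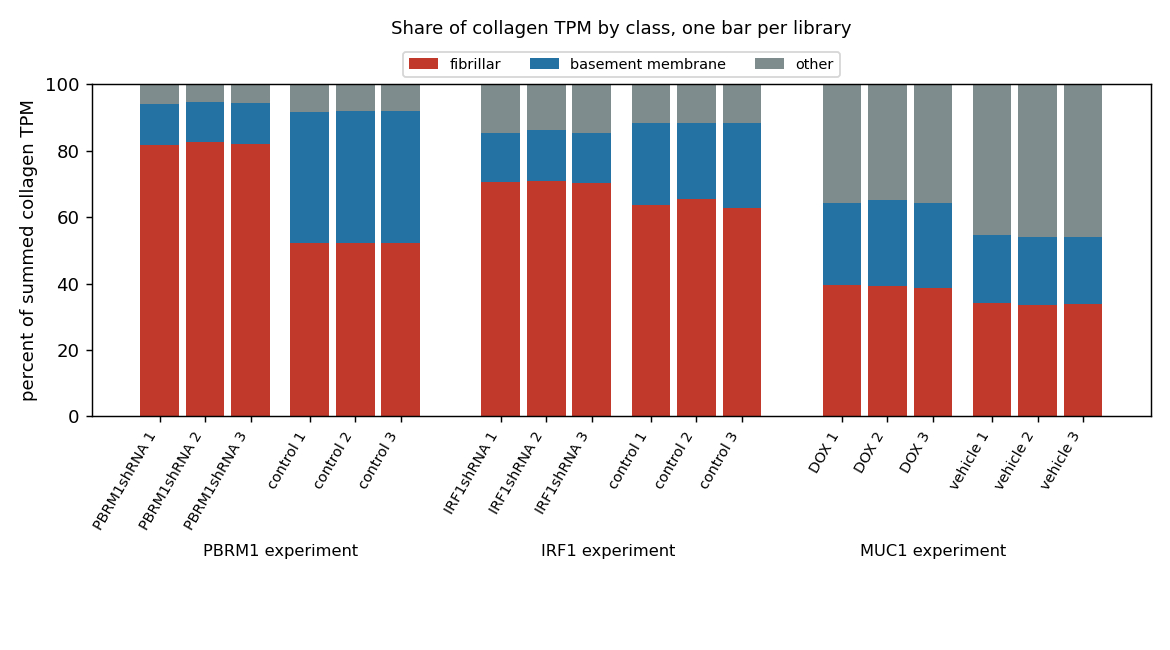
Percent of summed collagen TPM held by fibrillar, basement membrane and other collagen genes, with a bar for each of the 18 libraries. The basement membrane share was 12.2% in PBRM1shRNA and 39.7% in control libraries on average, 15.0% in IRF1shRNA and 24.4% in control libraries, and 25.4% in DOX and 20.3% in vehicle libraries.

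PBRM1 silencing was examined first. Of the 17 collagen genes tested, 3 were higher, 10 were lower and 4 did not pass the test (limma on log2(TPM + 1), Benjamini-Hochberg adjusted p under 0.05 over 10639 genes). The test was passed by 59.5% of all genes tested, 24.6% being higher and 34.8% lower. With the replicate number as a block, 14 of the 17 collagen genes and 75.5% of all genes passed. Of the 10, 8 were also called, with a log2 fold below -1, whereas 3.86% of all genes tested were called lower. No collagen gene was called higher, whereas 1.02% of all genes were. The median log2 fold was -0.47 over the collagen genes and -0.047 over all genes. Silenced and control libraries did not overlap in 14 of the 17 genes, against 62% of all genes tested. COL6A3 is in these counts although it passed the filter only through the controls. Over genes that reached 1 TPM in both groups, 9 of 16 collagen genes were lower and 7 called lower, against 32.5% and 2.66% of all such genes. Groups did not overlap in 13 of these 16, against 60.2% of all such genes. With median-ratio scaling of the columns, 7 were higher and 10 lower (43.3% and 33% of all genes), of which 5 were called, since COL12A1, COL6A1 and COL6A2 moved to log2 folds of -0.93, -0.95 and -0.97.

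Of the basement membrane genes, COL15A1, COL4A2 and COL4A1 were called lower in PBRM1shRNA cells. COL15A1 encodes a collagen of the outer basement membrane zone that carries glycosaminoglycan chains. It had 28.7, 26.5 and 26.8 TPM in PBRM1shRNA libraries, against 334, 301 and 335 TPM in controls. The groups were far apart, at 27.3 ± 1.17 TPM in silenced cells and 323 ± 19.5 TPM in controls (SD, n = 3 each), a level 11.8-fold lower in silenced cells. The log2 fold was -3.52 ± 0.086 (SE, which in this fit follows expression level and not the spread of the gene itself). COL4A2 and COL4A1 encode the chains of the most widespread type IV network. COL4A2 had 31.9, 30.1 and 31.6 TPM in silenced libraries, against 119, 107 and 118 TPM in controls (log2 fold -1.84 ± 0.086). COL4A1 had 28.1, 25.6 and 26.0 TPM in silenced libraries, against 75.9, 66.5 and 75.6 TPM in controls (log2 fold -1.41 ± 0.087). Both were lower in every silenced library than in any control library. COL18A1, the source of the fragment endostatin, was lower by a smaller margin, at 8.59 ± 0.146 TPM in silenced cells and 11.2 ± 0.259 TPM in controls (SD, n = 3 each; log2 fold -0.35 ± 0.088, limma adjusted p = 0.000222).

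COL4A5, a type IV chain encoded on the X chromosome and mutated in Alport syndrome, did not follow COL4A1 and COL4A2. It averaged 23.7 ± 1.78 TPM in PBRM1shRNA cells and 20.6 ± 1.99 TPM in controls (SD, n = 3 each), and the groups overlapped (log2 fold 0.20 ± 0.087, limma adjusted p = 0.0411). Its call was lost without silenced library 1 (0.14), silenced library 3 (0.20), control library 2 (0.12) or control library 3 (0.22), with adjusted p between 0.0520 and 0.261 in those limma fits. It was also lost with no filter (adjusted p = 0.123) and in limma with no trend (adjusted p = 0.0627).

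Fibrillar genes went in both directions. COL1A2 had 369, 351 and 355 TPM in PBRM1shRNA libraries, against 281, 249 and 281 TPM in controls (log2 fold 0.41 ± 0.084). COL1A1 had 193, 198 and 192 TPM in silenced libraries, against 120.5, 113 and 123 TPM in controls (log2 fold 0.71 ± 0.085). Both type I chains were thus higher in every silenced library. COL3A1, the single chain of type III collagen, had 29.98, 26.47 and 28.98 TPM in silenced libraries, against 80.1, 72.4 and 82.9 TPM in controls. It was lower in every silenced library (log2 fold -1.43 ± 0.087). COL5A2, a type V chain, was lower at 118 ± 7.70 TPM in silenced cells and 164 ± 11.4 TPM in controls (SD, n = 3 each; log2 fold -0.47 ± 0.085). Its partner COL5A1 was at 92.8 ± 1.97 TPM in silenced cells and 83.0 ± 2.96 TPM in controls, with a log2 fold of 0.16 ± 0.086 (limma adjusted p = 0.0951). COL5A1 passed the test as higher in a limma fit with the replicate number as a block (adjusted p = 0.00069), which left the other collagen calls of the PBRM1 experiment as they were.

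Among other collagens, the type VI genes were lower together. Type VI collagen forms beaded microfilaments next to cells. COL6A2 had 8.58, 7.83 and 8.07 TPM in PBRM1shRNA libraries, against 18.84, 17.99 and 18.23 TPM in controls (log2 fold -1.08 ± 0.088). COL6A1 had 11.8, 10.7 and 11.5 TPM in silenced libraries, against 25.5, 23.2 and 25.3 TPM in controls (log2 fold -1.06 ± 0.088). COL6A3 had 0.572, 0.470 and 0.489 TPM in silenced libraries, against 3.43, 2.93 and 3.37 TPM in controls (log2 fold -1.49 ± 0.077). COL6A3 passed the filter only through the control libraries. COL12A1, a collagen that coats type I fibrils, had 29.03, 24.46 and 26.63 TPM in silenced libraries, against 59.9, 49.8 and 58.8 TPM in controls. It was lower in every silenced library (log2 fold -1.04 ± 0.087) and fell just short of the called fold without silenced library 2 (-0.98) or control library 1 (-0.995). The transmembrane collagens COL13A1 and COL23A1 and the fibril-associated COL16A1 did not pass the test, with log2 folds between 0.047 and 0.10, and COL13A1 had a log2 fold of -0.023 when short noncoding RNAs were removed.

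IRF1 silencing was examined in the same line with its own controls. Of 14 collagen genes tested, 3 were higher, 3 were lower and 8 did not pass the test. Of all 9135 genes tested 24.3% passed, with 5.76% higher and 18.5% lower. A single collagen gene, COL15A1, was called lower, whereas 1.78% of all genes were called lower, and none was called higher, whereas 0.0547% of all genes were. Groups did not overlap in 6 of the 14 genes, against 33.9% of all genes tested. These counts changed with the processing. Removal of short noncoding RNAs raised log2 TPM in silenced relative to control libraries by 0.119, and 10 of 22 collagen genes were then higher and 6 lower, against 35.4% and 29.4% of 12706 genes tested. Median-ratio scaling gave 6 higher and 3 lower of 14, against 32.9% and 35.9% of all genes. In both, limma's prior degrees of freedom were finite and more genes passed in either direction, so that the scale was not all that differed.

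COL15A1 was again the collagen gene with the largest fold. It had 4.38, 6.18 and 5.52 TPM in IRF1shRNA libraries, against 21.3, 16.9 and 19.5 TPM in controls. Silenced libraries were all below controls, with a mean 3.59-fold lower and a log2 fold of -1.67 ± 0.15. COL4A2 was lower at 16.9 ± 2.23 TPM in silenced cells and 26.6 ± 2.85 TPM in controls (SD, n = 3 each; log2 fold -0.63 ± 0.15, limma adjusted p = 0.000348). COL4A1 was lower at 8.53 ± 1.06 TPM in silenced cells and 12.9 ± 1.57 TPM in controls (log2 fold -0.54 ± 0.15, limma adjusted p = 0.00208). The COL4A1 call was lost without silenced library 1 (-0.46, adjusted p = 0.0799 by limma). COL4A5 and COL18A1 had log2 folds of -0.10 and 0.13 and did not pass the test.

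Of the fibrillar genes, COL5A2 alone passed the test in IRF1shRNA cells. It had 32.4 ± 5.15 TPM in silenced cells and 20.8 ± 2.23 TPM in controls (SD, n = 3 each), with no overlap (log2 fold 0.61 ± 0.15, limma adjusted p = 0.000597). COL1A2 had 52.2, 69.2 and 58.0 TPM in silenced libraries, against 68.2, 59.2 and 53.3 TPM in controls. COL1A1 had 42.4, 50.2 and 48.4 TPM in silenced libraries, against 59.3, 56.3 and 46.3 TPM in controls. COL5A1, the third most abundant collagen transcript of the experiment, had 27.6, 33.5 and 30.0 TPM in silenced libraries, against 33.5, 29.9 and 26.6 TPM in controls. These groups overlapped, and COL3A1 likewise had 6.18 TPM in silenced cells and 6.16 TPM in controls. The log2 folds of COL1A2 and COL3A1 were -0.013 and -0.0088, and their sign changed with median-ratio scaling (0.056 and 0.050) and with removal of short noncoding RNAs (0.11 and 0.10).

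COL6A2 was higher at 8.49 ± 0.551 TPM in IRF1shRNA cells and 6.04 ± 0.561 TPM in controls (SD, n = 3 each; log2 fold 0.43 ± 0.15, limma adjusted p = 0.0164). COL13A1, a transmembrane collagen of cell adhesion sites, was higher at 2.33 ± 0.194 TPM in silenced cells and 1.65 ± 0.254 TPM in controls (log2 fold 0.34 ± 0.12, limma adjusted p = 0.0182). The COL6A2 call was lost without silenced library 1 (0.48), silenced library 3 (0.41), control library 2 (0.42) or control library 3 (0.39). The COL13A1 call was lost without any of the 3 silenced libraries (0.36, 0.29 and 0.36 without libraries 1, 2 and 3) and without control library 2 (0.28) or 3 (0.32). COL6A1 and COL12A1 did not pass the test, with log2 folds of 0.093 and 0.19.

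DOX-induced MUC1 silencing was examined in MDA-MB-436 cells. Of 16 collagen genes tested, 4 were higher, 8 were lower and 4 did not pass the test. Of all 13229 genes tested 50.4% passed, with 27% higher and 23.4% lower. One collagen gene was called higher and 3 were called lower, whereas 1.34% of all genes were called higher and 1.35% lower. The gene called higher and 1 of those called lower, COL17A1 and COL3A1, passed the filter only through the group where they were high. Over genes that reached 1 TPM in both groups, none of 14 collagen genes was called higher and 2 were called lower, against 1.11% and 1.21% of all such genes. Of these 14, 3 were higher and 7 lower, against 26.8% and 23% of all such genes. Their groups did not overlap in 12, against 58.6%. With COL17A1 and COL3A1 included, groups did not overlap in 14 of the 16 genes, against 59.2% of all genes tested. The median log2 fold was then -0.14 over the collagen genes and 0.015 over all genes.

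COL17A1, a transmembrane collagen of epithelial hemidesmosomes, had 4.76, 4.32 and 4.68 TPM in DOX-treated libraries, against 0.0381, 0.0694 and 0.0938 TPM in vehicle-treated libraries. It was near 0 with vehicle and above 4 TPM in every DOX library (log2 fold 2.39 ± 0.13, limma adjusted p = 1.82e-06). Because it passed the filter only through the DOX libraries, it could not be tested when any of them was left out. The authors' mean normalized count for COL17A1 over all 6 libraries was 66.7, so that the vehicle values rest on few reads.

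The type VI genes and several minor collagens were lower with DOX. COL6A1 had 19.6, 18.2 and 18.9 TPM in DOX-treated libraries, against 40.4, 40.2 and 41.9 TPM with vehicle (log2 fold -1.07 ± 0.049, limma adjusted p = 7.66e-07). COL27A1, a fibrillar collagen known from cartilage, had 1.66, 1.60 and 1.51 TPM with DOX, against 3.83, 4.86 and 4.43 TPM with vehicle. Its log2 fold was -1.05 ± 0.12 (limma adjusted p = 0.000101) and -0.98 without vehicle library 2. COL3A1 had 0.761, 0.780 and 0.638 TPM with DOX, against 2.96, 2.24 and 2.66 TPM with vehicle. It passed the filter only through the vehicle libraries (log2 fold -1.06 ± 0.14, limma adjusted p = 0.000262; authors' mean normalized count 47.1). COL16A1 (log2 fold -0.94), COL6A2 (-0.64), COL7A1, the anchoring fibril collagen of the skin (-0.60), COL4A5 (-0.44) and COL12A1 (-0.22) were lower as well. COL12A1 was the second most abundant collagen transcript of the experiment, with 32.4, 30.9 and 30.4 TPM with DOX, against 37.0, 35.9 and 36.9 TPM with vehicle.

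The major type IV chains were higher with DOX. COL4A2 averaged 20.6 ± 0.191 TPM with DOX and 12.4 ± 0.391 TPM with vehicle (SD, n = 3 each; log2 fold 0.69 ± 0.055, limma adjusted p = 1.55e-05). COL4A1 averaged 9.79 ± 0.797 TPM with DOX and 6.21 ± 0.251 TPM with vehicle (log2 fold 0.58 ± 0.082, limma adjusted p = 0.000402). COL5A2 was also higher (log2 fold 0.40 ± 0.086). The most abundant collagen transcript, COL5A1, had 99.1, 101 and 96.6 TPM with DOX, against 93.6, 91.5 and 97.3 TPM with vehicle. These groups overlapped (log2 fold 0.069 ± 0.039, limma adjusted p = 0.167). COL18A1, COL4A6 and COL14A1 did not pass the test either, with log2 folds of -0.056, 0.12 and 0.33.

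**Figure D3:**
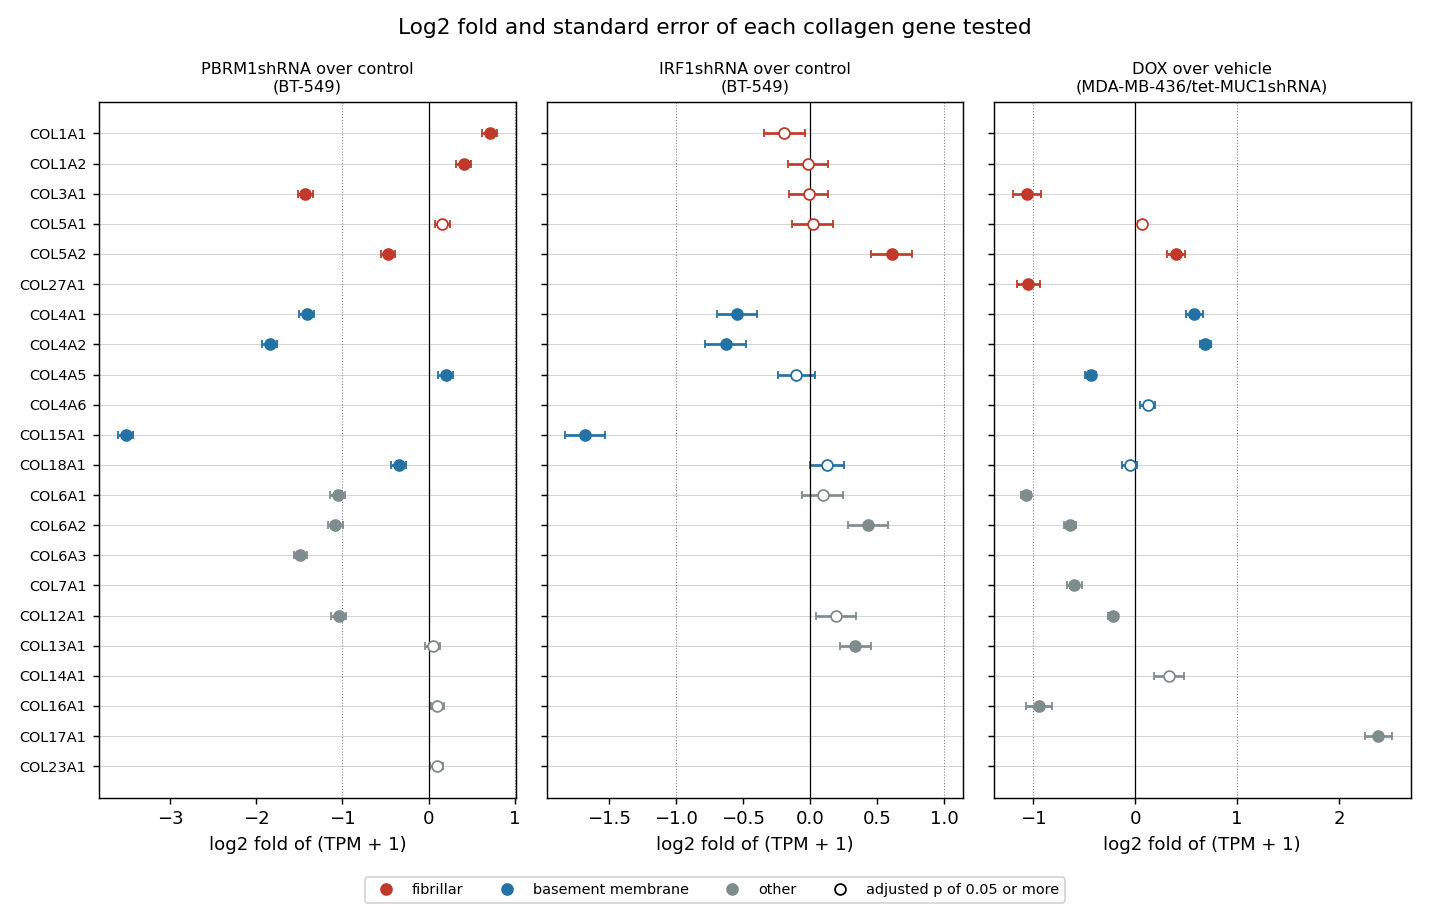
Log2 fold of (TPM + 1) with its standard error for each collagen gene tested, silenced over control or DOX over vehicle, colored by class, with 3 libraries a group. Filled points have an adjusted p under 0.05 and dotted lines mark folds of -1 and 1; COL4A1 and COL4A2 lie left of 0 in both BT-549 panels (-1.41 and -1.84, -0.54 and -0.63) and right of 0 in the MDA-MB-436 panel (0.58 and 0.69).

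Side by side, the members differed in how they moved across the 3 comparisons, which share no libraries. COL15A1, COL4A2 and COL4A1 were lower in PBRM1shRNA cells and in IRF1shRNA cells, and COL4A2 and COL4A1 were higher in DOX-treated MDA-MB-436 cells. COL5A2 was lower in PBRM1shRNA cells and higher in both other comparisons. COL6A2 was lower in PBRM1shRNA and DOX-treated cells and higher in IRF1shRNA cells. In IRF1shRNA cells the calls of COL6A2 and COL4A1 held in 8 and 11 of 13 alternatives. COL12A1 was lower in PBRM1shRNA and DOX-treated cells, and had a log2 fold of 0.19 in IRF1shRNA cells that did not pass the test. Differences between comparisons were not tested, because the tables were normalized separately.

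Pairs of collagen transcripts, among them chains that assemble into the same protein, were then compared within libraries as ratios of TPM, which do not change with the scale of a library. In each BT-549 experiment 11 ratios were compared and in MDA-MB-436 cells 9, chosen with the levels known, and the smallest exact permutation p that 3 against 3 allows is 0.10. COL1A1 over COL1A2 was 0.544 ± 0.0206 in PBRM1shRNA cells and 0.440 ± 0.0118 in controls, and 0.791 ± 0.0576 in IRF1shRNA cells and 0.896 ± 0.0471 in controls (SD, n = 3 each). COL5A1 over COL5A2 was 0.789 ± 0.0652 in PBRM1shRNA cells and 0.508 ± 0.0181 in controls, and 0.943 ± 0.0560 in IRF1shRNA cells and 1.44 ± 0.0296 in controls. In MDA-MB-436 cells it was 16.9 ± 0.370 with DOX and 22.5 ± 0.816 with vehicle. None of these groups overlapped (two-sided exact permutation p = 0.10, with an adjusted p over the ratios of an experiment of 0.11 for BT-549 and 0.129 for MDA-MB-436).

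COL4A1 and COL4A2 start from a shared region. COL4A1 over COL4A2 was 0.852 ± 0.0285 in PBRM1shRNA cells and 0.633 ± 0.0092 in controls, so COL4A2 was the more reduced of the pair. It was 0.505 ± 0.00398 in IRF1shRNA cells and 0.483 ± 0.00976 in controls, and 0.476 ± 0.0425 with DOX and 0.502 ± 0.0334 with vehicle, where the groups overlapped (exact permutation p = 0.40). COL6A1 over COL6A2 was 1.39 ± 0.0327 in PBRM1shRNA cells and 1.34 ± 0.0509 in controls, with overlap, 1.47 ± 0.0342 in IRF1shRNA cells and 1.92 ± 0.0199 in controls, and 0.879 ± 0.0599 with DOX and 1.20 ± 0.0470 with vehicle. COL15A1 over COL4A1 was 1.03 ± 0.00764 in PBRM1shRNA cells and 4.45 ± 0.0630 in controls, and 0.626 ± 0.0368 in IRF1shRNA cells and 1.50 ± 0.161 in controls. COL15A1 was thus lower relative to COL4A1 in both, without overlap. COL3A1 over COL1A1 was 0.146 ± 0.0114 in PBRM1shRNA cells and 0.660 ± 0.0160 in controls, and 0.131 ± 0.0160 in IRF1shRNA cells and 0.115 ± 0.0147 in controls, where the groups overlapped.

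**Figure D4:**
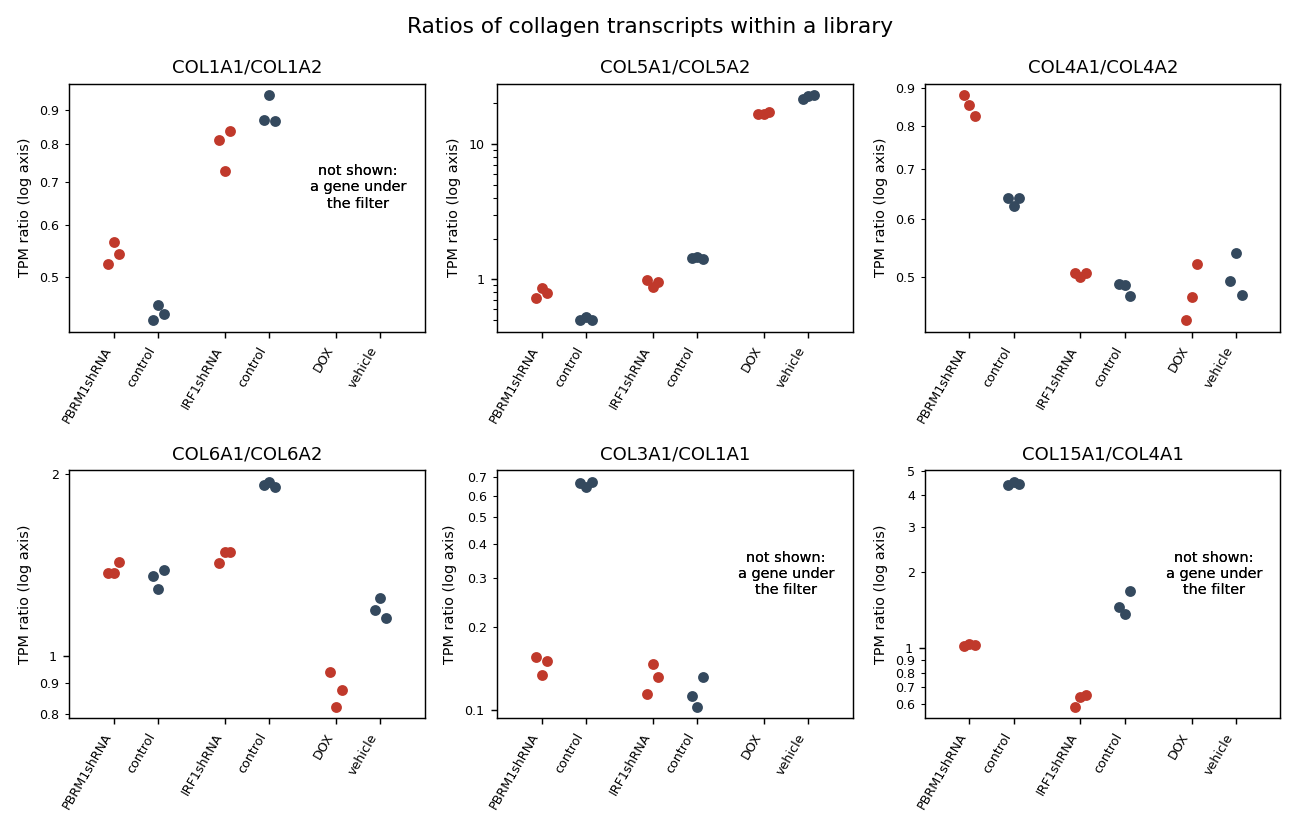
Ratio of TPM between pairs of collagen transcripts within each library, on log axes, for silenced (or DOX) and control (or vehicle) groups, with a point for each library (3 a group). Ratios with a gene under the filter in that table are not drawn; COL15A1 over COL4A1 averaged 1.03 in PBRM1shRNA and 4.45 in control cells, and 0.626 in IRF1shRNA and 1.50 in control cells.

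Start regions are shown for the genes on which these results turn: the shared COL4A1 and COL4A2 region, because the pair moved in the same direction in each comparison, and COL15A1 and COL17A1, which had the widest folds of the BT-549 and the MDA-MB-436 comparisons. Windows of 250 bases before and 50 after the start were taken from RefSeq on GRCh38.p14, where 32 of the 44 collagen genes had a window and 44 windows were listed in all. COL4A2 and COL4A1 are transcribed away from each other from start sites 127 bases apart on chromosome 13, and the COL4A2 window (chr13:110307034-110307333, plus strand) holds both. Other head-to-head pairs were COL4A3 with COL4A4, 419 bases apart, and COL4A5 with COL4A6, 380 bases apart at the nearest start. Motifs were searched on both strands, and capitals mark the matches within these windows to the CCAAT box (CCAAT), the GC box (GGGCGG), the TATA box (TATAAA) and the core of the IFN-stimulated response element (ISRE), which is GAAA, any 2 bases and then GAAA.
COL4A2: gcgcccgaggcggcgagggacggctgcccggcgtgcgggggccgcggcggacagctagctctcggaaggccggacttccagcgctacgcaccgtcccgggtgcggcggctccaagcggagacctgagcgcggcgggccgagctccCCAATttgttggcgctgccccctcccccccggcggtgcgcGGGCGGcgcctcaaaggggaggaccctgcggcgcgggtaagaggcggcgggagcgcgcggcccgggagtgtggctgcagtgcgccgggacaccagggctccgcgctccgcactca
COL15A1: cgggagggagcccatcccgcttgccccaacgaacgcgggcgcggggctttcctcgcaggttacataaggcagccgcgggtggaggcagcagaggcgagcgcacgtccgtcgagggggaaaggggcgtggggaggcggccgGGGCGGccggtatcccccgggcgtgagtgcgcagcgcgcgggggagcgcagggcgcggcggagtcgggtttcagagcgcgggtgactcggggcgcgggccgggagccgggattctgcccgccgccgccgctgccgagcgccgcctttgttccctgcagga
COL17A1: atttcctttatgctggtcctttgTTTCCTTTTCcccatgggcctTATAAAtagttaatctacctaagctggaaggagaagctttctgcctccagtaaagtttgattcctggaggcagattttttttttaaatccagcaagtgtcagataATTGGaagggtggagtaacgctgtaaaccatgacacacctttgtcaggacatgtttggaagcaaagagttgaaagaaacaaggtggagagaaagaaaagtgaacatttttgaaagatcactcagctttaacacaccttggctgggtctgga

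The COL4A2 window held a CCAAT box match and a GC box match. The COL15A1 window (chr9:98943657-98943956, plus strand) held a GC box match. The COL17A1 window (chr10:104085831-104086130, minus strand) held a TATA box match and, on the other strand, a CCAAT box match and an ISRE core match. The ISRE core was found in 1 of the 44 collagen windows (2.27%) and in 3.57% of all windows. TTCNNNGAA, the STAT binding motif, was found in 4.55% of collagen windows and 7.66% of all windows, in those of COL7A1 and COL11A2. The GC box was found in 54.55% of collagen and 44.95% of all windows, the CCAAT box in 31.82% of collagen and 34.61% of all windows, and the TATA box in 18.18% of collagen and 11.53% of all windows. The AP-1 motif TGANTCA was found in 2.27% of collagen and 7.71% of all windows. A match describes letters and not binding.

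Genes that modify, move, process, bind or degrade collagen were followed as fixed lists of 70 genes in all. In the PBRM1 experiment 14 of 51 tested were higher and 23 lower, against 24.6% and 34.8% of all genes. Of matrix partners, 1 was higher and 8 were lower of 9, but NID2, HSPG2 and BGN passed the filter only through the controls, where they were high. AGRN, the basement membrane proteoglycan agrin, had 4.20 ± 0.135 TPM in PBRM1shRNA cells and 28.1 ± 1.82 TPM in controls (SD, n = 3 each; log2 fold -2.48 ± 0.088), and FN1, fibronectin, had 13.9 TPM in silenced cells and 37.0 TPM in controls (-1.35). POSTN, periostin, was the matrix partner that was higher (1.52), at 14.2 TPM in silenced cells and 4.29 TPM in controls. Among proteases, the collagenase MMP1 had 0.837 ± 0.0150 TPM in silenced cells and 15.0 ± 0.760 TPM in controls (-3.12 ± 0.087) and the gelatinase MMP2 was lower (-1.39), both passing the filter only through the controls, while the membrane protease MMP14 was higher (0.62).

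The counts of the remaining lists in PBRM1shRNA cells stand beside 24.6% higher and 34.8% lower over all genes tested. No list was tested as a set. Of 14 hydroxylases and chain-modifying enzymes tested, 4 were higher and 7 lower, with P4HA2, PLOD3 and P3H3 lower (-0.94, -0.68 and -0.60). Of 10 chaperone and export genes, 2 were higher and 4 lower. SERPINH1, the collagen chaperone HSP47, had 232 ± 7.85 TPM in silenced cells and 399 ± 20.2 TPM in controls (SD, n = 3 each; log2 fold -0.78 ± 0.084), FKBP10 was lower (-0.68) and FKBP14 higher (1.05). Of 9 genes of propeptide removal and cross-linking, 3 were higher and 1 lower, with ADAMTS3 and ADAMTS2, which cut N-terminal propeptides, higher (1.17 and 0.46) and BMP1 lower (-0.26). Of 5 receptors, 3 were higher and 1 lower, with MRC2, an endocytic collagen receptor, lower (-0.93) and ITGA10 and CD44 higher (0.52 and 0.37).

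In the IRF1 experiment 2 of 39 tested were higher and 12 lower, against 5.76% and 18.5% of all genes. TGFBI, a matrix protein that binds collagen, had 9.61 ± 1.32 TPM in IRF1shRNA cells and 38.1 ± 4.96 TPM in controls (SD, n = 3 each; log2 fold -1.88 ± 0.15). Of 13 hydroxylases and chain-modifying enzymes, 1 was higher and 5 lower. CRTAP, a subunit of the prolyl 3-hydroxylase complex, had 3.13 ± 0.417 TPM in silenced cells and 8.93 ± 1.02 TPM in controls (-1.26 ± 0.14), PLOD2, a lysyl hydroxylase, had 6.63 ± 0.899 TPM in silenced cells and 17.4 ± 3.48 TPM in controls (-1.26 ± 0.15), and P3H2 was also lower (-0.90). Of the other lists, AGRN (-0.57), PCOLCE2 (-0.64), LOX (-0.56), LOXL1 (-0.36), MMP1 (-0.85) and SERPINH1 (-0.39) were lower and MIA3, an export receptor for procollagen, was higher (0.50). Several of these calls were not stable. Those of LOXL1 and SERPINH1 held in 6 of 12 and 6 of 13 alternatives (limma adjusted p up to 0.258 and 0.248). Among fits without a library, LOXL1 kept its call only without control library 1 and SERPINH1 only without silenced library 2. LOX lost its call without silenced library 1 (-0.50, limma adjusted p = 0.0591) and with no filter (limma adjusted p = 0.0567). MIA3 lost its call without control library 2 (0.48, limma adjusted p = 0.0735). It also did so with no filter (limma adjusted p = 0.05475) and with a replicate block (limma adjusted p = 0.0741). Of 4 receptors tested with limma none passed; CD44 and DDR2 had unadjusted p of 0.0296 and 0.0355.

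In DOX-treated MDA-MB-436 cells 12 of 52 tested were higher and 22 lower, against 27% and 23.4% of all genes. CRTAP had 64.2 ± 4.32 TPM with DOX and 152 ± 6.05 TPM with vehicle (SD, n = 3 each; log2 fold -1.23 ± 0.054), and its partner P3H1 had 44.0 ± 2.50 TPM with DOX and 80.4 ± 5.10 TPM with vehicle (-0.86 ± 0.059). ADAMTS2 (-1.21), ADAMTS3 (-0.98, passing the filter only through vehicle), PXDN, a peroxidase that cross-links type IV collagen (-0.80), MRC2 (-1.10), MMP2 (-0.83), P3H3 (-0.57), NID1 (-0.48), CREB3L1 (-0.61) and SEC23A (-0.56) were lower. ITGA2, the alpha subunit of a collagen-binding integrin, had 26.4 ± 0.924 TPM with DOX and 13.1 ± 0.290 TPM with vehicle (0.96 ± 0.055), and NID2 (0.52), FN1 (0.41), FKBP14 (0.60), MMP1 (0.54) and the collagen receptor DDR1 (0.41) were higher. MMP14 was lower (-0.32), a call that held in 5 of 12 alternatives (limma adjusted p up to 0.119) and in no fit without a library except that without DOX library 3. DDR1 lost its call without vehicle library 1 (0.37), vehicle library 2 (0.40) or DOX library 2 (0.36), and MMP1 without vehicle library 2 (0.46), DOX library 1 (0.50) or DOX library 2 (0.43).

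Markers of other cell types were read in the same libraries. Of 6 fibroblast and stromal markers, THY1 alone reached the filter in BT-549 cells and FAP alone in MDA-MB-436 cells, where DCN and LUM were listed at 0. The summed list was at 43.6 to 45.2 TPM in PBRM1shRNA and 72.9 to 78.2 TPM in control libraries. It was at 18.1 to 20.6 TPM in IRF1shRNA and 25.1 to 30.5 TPM in control libraries. COL4A1 and COL15A1 were also lower in both. COL1A1 and COL1A2, by contrast, were higher in PBRM1shRNA cells and did not pass the test in IRF1shRNA cells. In MDA-MB-436 cells the list summed to 12.5 to 15.0 TPM with DOX and 12.5 to 13.8 TPM with vehicle. Of 7 leukocyte markers none reached the filter in BT-549 cells, and CD14 alone did in MDA-MB-436 cells, at 9.03 TPM with DOX and 4.34 TPM with vehicle (log2 fold 0.89, limma adjusted p = 0.00063). Of 5 endothelial markers, ROBO4 alone did, in the PBRM1 table.

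Summed epithelial markers, of which KRT8 and KRT18 made up most, were 34.1 to 40.0 TPM in PBRM1shRNA and 4.04 to 4.65 TPM in control libraries, 0.845 to 1.03 TPM in IRF1shRNA and 1.91 to 2.53 TPM in control libraries, and 1649 to 1725 TPM in DOX and 837 to 866 TPM in vehicle libraries. In MDA-MB-436 cells 4 of the 6 reached the filter (EPCAM, CDH1, KRT8 and KRT18), and they were higher beside COL17A1, CDH1 passing the filter only through the DOX libraries. In the PBRM1 table KRT8 passed only through the silenced libraries, and CDH1, under the filter, had 0.194 TPM in PBRM1shRNA cells and 0.688 TPM in controls, without overlap. The mesenchymal markers VIM, CDH2 and ZEB1 all reached the filter in each table and summed to 449 to 500.1 TPM in PBRM1shRNA and 370.3 to 426 TPM in control libraries, 209 to 253 TPM in IRF1shRNA and 291 to 388 TPM in control libraries, and 1061 to 1143 TPM in DOX and 1842 to 1954 TPM in vehicle libraries. VIM made up most of these sums. ZEB1 went against the sum in the PBRM1 experiment, at 9.63 TPM in PBRM1shRNA cells and 15.03 TPM in controls (log2 fold -0.59, limma adjusted p = 1.48e-10). The part of these markers in the collagen results was not tested. Antisense RNAs of collagen genes stayed under 1 TPM in all libraries where they were listed.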

How the data were processed

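RNA-seq libraries were analyzed from triplicate cultures of silenced and control TNBC cells. The submitters' processing notes name STAR, GRCh38 and DESeq2, with no versions. For the annotation, the counter with its strand setting and the program behind TPM, the names were not given in the sources used here. TPM tables were deposited by the authors (1 per experiment, 1 column per library, each summing to 1000000, short noncoding RNAs included), along with DESeq2 comparison tables. From the latter, the authors' mean normalized counts, a signal averaged over libraries, served as read support. Their log2 fold changes, standard errors, Wald scores and p-values, as deposited by the authors, were not used.

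Genes with at least 1 TPM in at least 3 of 6 libraries were fitted per experiment on log2(TPM + 1) with limma 3.58.1 in R 4.3.3 (eBayes with trend, two-sided, Benjamini-Hochberg over all genes tested). Higher and lower mean adjusted p under 0.05, and called adds an absolute log2 fold above 1. Folds on this scale understate changes of low genes. Both BT-549 fits had infinite prior degrees of freedom, so that standard errors there follow expression level and not each gene's own spread. The fit was also run on simulated data with independent noise for each gene. That simulation held no shift of whole libraries, so it cannot speak to such shifts here.

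In the PBRM1 table control columns name the line and no hairpin. They match no single sample label and were assigned to their group, numbered by the end of the column name. Deviations of same-numbered libraries correlated at 0.455, 0.309 and 0.290, and those of unlike numbers at -0.377 to 0.114. Whether the numbers pair the samples is not known, since what they stand for is not stated. The main fit left them out, and a replicate block was run as an alternative.

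Values in every library were given for called members and the 3 members of highest mean level per table, and up to 3 genes with the largest folds per pathway list. The members, gene lists, ratios and motifs were chosen with earlier results of these data known. Alternatives were a pseudocount of 0.1, no filter, a mean of at least 5 TPM, removal of short noncoding RNAs, median-ratio scaling, no trend, a replicate block and leaving out each library. Counts over genes that reached 1 TPM in at least 1 library of each group were added after seeing the data. Gene positions and promoter windows came from GENCODE and RefSeq. COL14A1, COL1A1, COL1A2, COL20A1, COL22A1, COL2A1, COL3A1, COL5A2, COL6A1, COL6A5, COL8A1 and COL9A3 had no window in the table used.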

Additional observations from a re-analysis of the deposited data

How the results depend on the processing

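In the PBRM1 experiment the 3 collagen genes that were higher became 7 with median-ratio scaling, 6 with no filter (40 tested) and 5 with short noncoding RNAs removed (24 tested), and 2 to 3 when a library was left out. Of all genes, 24.6% were higher in the main fit, 43.3%, 13.1% and 21.8% in those alternatives, and 18.5% to 25.4% without a library. The 10 collagen genes that were lower were 9 to 10 without a library. Of all genes, 34.8% were lower in the main fit and 26.1% to 40.9% without a library. In the IRF1 experiment the 3 that were higher became 6 with median-ratio scaling, 5 with no filter, 10 with short noncoding RNAs removed, 1 with a replicate block and 1 to 4 without a library, and the 3 that were lower became 6 with no filter and 6 with short noncoding RNAs removed (2 to 3 without a library). Of all genes, 5.76% were higher in the main fit, 32.9%, 4.14%, 35.4% and 2.07% in those alternatives, and 1.96% to 16.6% without a library. The share of all genes that were lower was 18.5% in the main fit, 9.31% with no filter and 29.4% with short noncoding RNAs removed. It was 10.3% to 20.3% without a library. In the MUC1 experiment the 8 that were lower became 5 with a mean of at least 5 TPM, where fewer genes were tested, and the counts were 3 to 4 higher and 7 to 8 lower without a library. The cause was otherwise not tested. Signs changed for COL13A1 in the PBRM1 experiment (-0.023 with short noncoding RNAs removed, -0.016 to 0.10 without a library), for COL1A2 (0.056 with median-ratio scaling, 0.11 with short noncoding RNAs removed, -0.12 to 0.078 without a library), COL3A1 (0.050, 0.10, and -0.12 to 0.13 without a library) and COL5A1 (-0.062 to 0.10 without a library) in the IRF1 experiment, and for COL18A1 in the MUC1 experiment (-0.12 to 0.0049 without a library), none of which passed the test. What the replicate numbers stand for is not stated for the IRF1 and MUC1 experiments either. Same-numbered correlations were -0.209, 0.0854 and 0.228 in the IRF1 experiment, and 0.053, -0.036 and 0.0058 in the MUC1 experiment. With the replicate block the IRF1 calls of COL6A2, COL13A1 and COL4A1 were lost (limma adjusted p = 0.148, 0.161 and 0.0513), and no other collagen call changed there or in the MUC1 experiment. COL13A1 also lost its IRF1 call with no filter (limma adjusted p = 0.0808). Depth per library is unknown, which limits statements on genes under 1 TPM.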

Other observations

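Both control groups of BT-549 cells carried a control shRNA by their sample labels, though the column names of the PBRM1 controls show no hairpin. Ratios of collagen transcripts within the libraries of both groups, which do not depend on the scale of a table, are given here as values with no test. COL15A1 over COL4A1 was 4.45 in the PBRM1 controls and 1.50 in the IRF1 controls. COL3A1 over COL1A1 was 0.660 in the PBRM1 controls and 0.115 in the IRF1 controls, COL6A3 over COL6A1 was 0.131 in the PBRM1 controls and 0.0257 in the IRF1 controls, and COL1A1 over COL1A2 was 0.440 in the PBRM1 controls and 0.896 in the IRF1 controls. The collagen share of TPM outside short noncoding RNAs was 0.612% in the PBRM1 controls and 0.201% in the IRF1 controls. Whether these controls differ in culture, passage or sequencing is not stated in the labels.

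Some collagen genes under the filter had groups that did not overlap. COL21A1 had 0.303 TPM in PBRM1shRNA cells and 0.869 TPM in controls, COL8A1 had 0.472 TPM in silenced cells and 0.801 TPM in controls, COL27A1 had 0.258 TPM in silenced cells and 0.528 TPM in controls, and COL4A6 had 0.638 TPM in silenced cells and 0.334 TPM in controls. COL24A1 had 0.455 TPM in IRF1shRNA cells and 0.192 TPM in controls. COL8A2 had 0.082 TPM with DOX and 0.348 TPM with vehicle in MDA-MB-436 cells. None of these was tested. Groups did not overlap in 10 of the 27 collagen genes under the filter in the PBRM1 table, 9 of 30 in the IRF1 table and 4 of 28 in the MUC1 table. Over all genes under the filter in those tables the shares were 17.6%, 20.7% and 6.74%. With genes at 0 in every library left out, they were 31.1%, 29.1% and 14.6%. The collagen counts still include 4, 2 and 6 such genes, so they are not on the same footing as these last shares.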
